A study of Homo sapiens with 2 samples.

Results

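The etoposide-only JUNB peaks away from gene boundaries were 8660 of the 25739 peaks that the etoposide list held on chromosomes 1 to 22 and X, or 33.6% (95% Wilson interval, 33.1% to 34.2%). They were selected on the peak calls themselves: a peak had to share no base with any untreated peak, and its summit had to lie more than 1 kb from both ends of every protein-coding gene of the RefSeq annotation of GRCh38. Among the 24485 etoposide peaks away from boundaries, 35.4% met the first condition. By the same rule 13739 of 29503 untreated peaks were untreated-only, or 46.6%. These shares were fixed by the rule and are given as a description. Another 403 etoposide-only peaks lay at boundaries, and 15825 etoposide peaks away from boundaries overlapped an untreated peak and are called shared below. Both lists together held 58289 peaks on these chromosomes.

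The study used CUT&RUN against JUNB on IMR-90 cells, a standard line of human lung fibroblasts, once untreated and once after etoposide. The dose and the length of treatment are not given in the sources used here. With 1 library per condition there was no spread between cultures to set a difference against, so no test of the treatment was run, and all intervals below cover counting error only. Peak lists hold no value where no peak was called, so the untreated signal at the places described here was not analysed, and a place without a peak is not shown to lack JUNB.

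JUNB is a subunit of AP-1, a dimer of JUN and FOS family proteins that binds a short palindromic DNA sequence and is found mostly at enhancers, away from gene starts. AP-1 is known for shaping the enhancers of fibroblasts, where it often sits beside TEAD factors, and for its part in the gene programme of senescent cells. Etoposide traps topoisomerase II on broken DNA, and the double-strand breaks can bring fibroblasts into senescence. In CUT&RUN an antibody brings a nuclease to its target in permeabilised cells, and the short fragments set free are sequenced.

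Letters could be read where a summit fell in a RefSeq promoter window, which spans 250 bases before to 50 bases after an annotated transcript start. Since the rule kept peaks away from the ends of protein-coding genes, these windows belong to internal starts and to non-coding transcripts. The sequences below show the letters that the motif counts rest on: the strongest of these peaks with an AP-1 match, at LOC107986092, and 5 of the 10 with a match at internal starts of protein-coding genes, chosen after their values were seen. Each gives the match nearest to the summit with up to 50 bases on either side. They are read 5′ to 3′ on the strand of the transcript, in GRCh38 patch 14. Capitals mark TGANTCA, the pattern searched for AP-1, in which N is any base. Matches were not divided by that base.
LOC107986092 (chr3:58471253-58471359, plus strand): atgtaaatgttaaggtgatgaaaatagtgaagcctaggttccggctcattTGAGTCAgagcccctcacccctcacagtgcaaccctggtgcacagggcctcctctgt
MCTP1 (chr5:95081651-95081757, minus strand): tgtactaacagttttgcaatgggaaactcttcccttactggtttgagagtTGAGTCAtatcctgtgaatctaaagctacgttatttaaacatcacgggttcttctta
CAST (chr5:96743504-96743601, plus strand): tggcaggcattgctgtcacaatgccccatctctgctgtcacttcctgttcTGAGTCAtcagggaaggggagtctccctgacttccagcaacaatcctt
SEPTIN9 (chr17:77375949-77376055, plus strand): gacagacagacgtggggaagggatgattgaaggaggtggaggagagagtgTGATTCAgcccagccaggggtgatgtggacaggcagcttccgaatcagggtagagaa
SLC3A2 (chr11:62881612-62881698, plus strand): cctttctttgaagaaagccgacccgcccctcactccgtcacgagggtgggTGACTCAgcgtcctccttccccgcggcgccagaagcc
FGF1 (chr5:142644240-142644330, minus strand): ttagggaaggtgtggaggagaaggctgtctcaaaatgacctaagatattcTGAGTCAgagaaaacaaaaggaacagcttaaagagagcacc

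The peak at LOC107986092, a long non-coding RNA gene, had 17 fragments stacked at its summit, which lay 26 bp from the centre of the match, and it ranked 2355 of the etoposide list by significance. MCTP1, which encodes a membrane protein with C2 domains, had 17 fragments at a summit 121 bp from its match. CAST, the gene of the calpain inhibitor calpastatin, had 10 fragments and SEPTIN9, a filament-forming septin, also had 10. Their summits lay 138 bp and 124 bp from the match. SLC3A2, the heavy chain of an amino acid transporter, had 11 fragments at 133 bp, and FGF1, a fibroblast growth factor, had 13 fragments at 87 bp. Of these 6 summits, that at LOC107986092 was the nearest to its motif.

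In all, 43 etoposide-only peaks had their summit in 45 promoter windows, 24 of them at long non-coding RNA genes and 20 at protein-coding genes, 1 peak being counted under both. A match to TGANTCA on either strand was present for 20 of the 43, or 46.5% (32.5% to 61.1%). The share was 66 of 119, or 55.5% (46.5% to 64.1%), for shared peaks and 46 of 155, or 29.7% (23.05% to 37.3%), for untreated-only peaks. Of all 34961 promoter windows, 7.68% held the motif. The intervals of etoposide-only and shared peaks overlapped, and so did those of etoposide-only and untreated-only peaks. Base composition also differed between the sets. The median GC content was 47.0% in the windows of etoposide-only peaks and 47.7% for shared peaks. It was 58.0% for untreated-only peaks and 58.7% over all windows. The part of base composition in the shares was not tested.

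The cyclic AMP response element TGACGTCA, a related full-length palindrome, was in 0 of the 43 (up to 8.20%) against 1.85% of all windows. The TEAD motif CATTCC was in 10 of 43, or 23.3% (13.2% to 37.7%), against 14.0% of all windows. The RUNX motif TGTGGT stood at 14.0% against 13.1%, the C/EBP motif TTGCNNAA at 11.6% against 10.4%, and the E-box CAGCTG at 16.3% against 18.0%. All were searched on both strands. The share of all windows lay inside the interval of the etoposide-only peaks for each of these 5 motifs and outside it for AP-1. A match is a description of letters in the window, and no match says only that the letters are not in it.

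**Figure D1:**
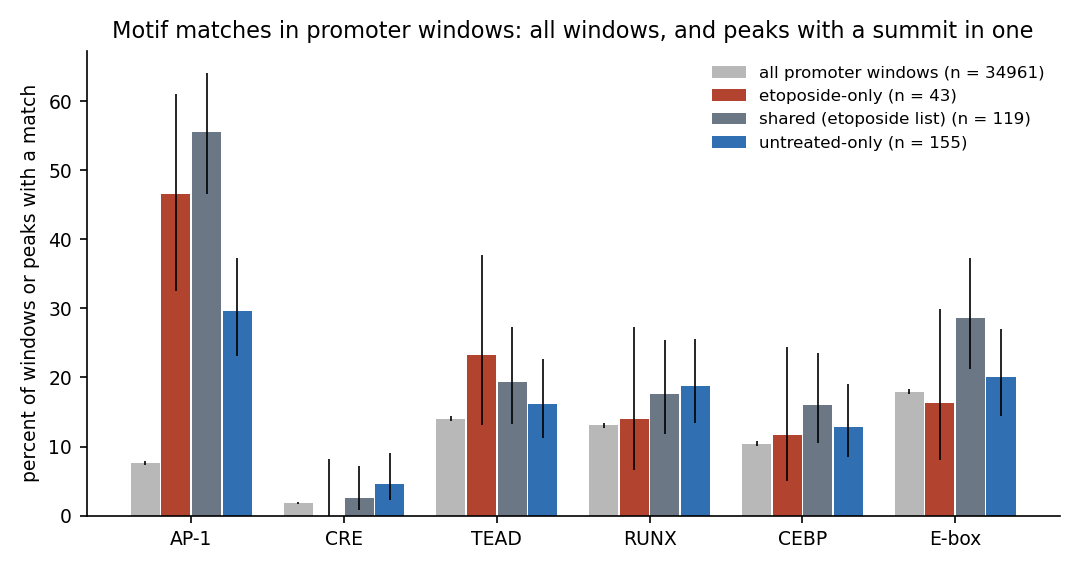
Percent with a match to each motif, of all promoter windows and of the peaks of each set whose summit lies in a promoter window, with 95% Wilson intervals as bars. AP-1 matches stand at 46.5% for etoposide-only peaks against 7.68% of all windows, and the other motifs of these peaks have intervals that take in the share of all windows.

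The matches seldom lay under the summit. In the 20 etoposide-only peaks with a match, the median distance from the summit to the nearest match was 135.5 bp (quartiles 112.5 and 153.5 bp). In 3 of 20 (15%) it was 50 bp or less and in 12 of 20 (60%) it was between 100 and 200 bp, while 31.4% and 33.4% of the bases of these windows lay at those distances. Shared peaks had a median of 129 bp, with 9.09% within 50 bp, and untreated-only peaks 122.5 bp with 6.52%. All 3 sets showed the displacement. Only the promoter window was searched and some summits lay near its edge, so a nearer match outside the window would not be seen.

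Peak height, as a count of stacked fragments, was computed from the authors' fold and p-value. Etoposide-only peaks were the low end of the etoposide list. Their median was 10 fragments (quartiles 8 and 13), against 15 (11 and 20) for shared peaks. Their median -log10 q was 6.43 (4.97 to 8.11) against 9.24, their median width 211 bp (189 to 289 bp) against 285 bp, and their median fold over local background 6.31 against 7.31. Untreated-only peaks had a median of 12 fragments and a width of 234 bp. The narrowest peaks were 189 bp in the etoposide list and 202 bp in the untreated list, which bears on that width. The lowest local backgrounds put the etoposide library at 0.836 times the depth of the untreated one.

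Ranked by significance and divided into 10 equal parts, the etoposide list held 66 etoposide-only peaks in the strongest part (2.57% of it) and 1488 in the weakest (57.8%). A weak peak is more easily missed in the other library, and how much of the set this makes up was not tested. The set still had a small tall fraction, with 275 peaks (3.18%) of 20 or more fragments, a height equal to the upper quartile of shared peaks. Of the 275, 65 (23.6%) lay in the gene-free stretches defined below, against 8.31% of the whole set. The tallest stack held 177 fragments, on a local background of 63.7.

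**Figure D2:**
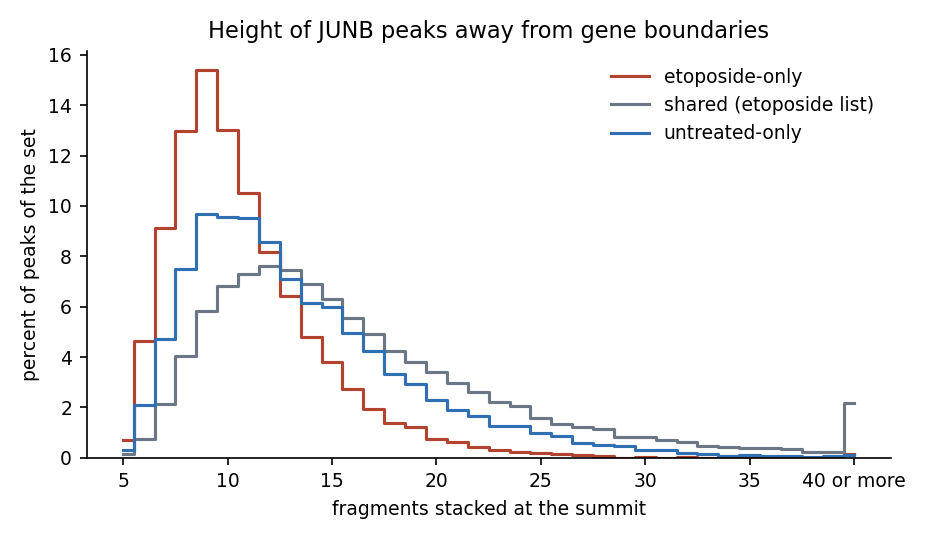
Percent of peaks by summit height in fragments, for etoposide-only, shared and untreated-only peaks away from gene boundaries; the last step holds 40 or more. Etoposide-only peaks centre on 10 fragments and shared peaks on 15, with a longer tail.

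Etoposide-only peaks lay slightly farther from genes than the other sets. Inside a protein-coding gene were 4418, or 51.0% (49.96% to 52.1%), against 51.5% of shared and 54.7% of untreated-only peaks. At over 100 kb from the nearest protein-coding gene were 1968, or 22.7% (21.9% to 23.6%), against 18.4% (17.8% to 19.0%) and 15.8% (15.2% to 16.5%). For summits outside genes, the median distance to the nearest gene was 82.9 kb, against 60.5 kb and 49.7 kb. A further 12.7% lay inside a long non-coding RNA gene alone, and 35% lay in no annotated gene of any kind. The annotation used gives whole genes, so exons and introns were not told apart.

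Part of this distance came from gene-free stretches, defined as 2 Mb or more without a protein-coding gene. They held 720 etoposide-only peaks, or 8.31% (7.75% to 8.91%), against 4.95% of shared and 3.28% of untreated-only peaks. The 5 stretches with most etoposide-only peaks lay on chromosomes 1, 5, 19, 10 and 4, and each takes in the centromere of its chromosome. Centromeres and their flanks are built of satellite DNA, arrays of near-identical repeats whose short reads match many places. How such reads were placed is not given in the sources used here, and its part in the counts below was not tested.

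The stretch of chromosome 1 (chr1:121463130-143902385, between LINC02798 and the histone gene H3-7) held 88 etoposide-only, 74 shared and 11 untreated-only peaks. That of chromosome 5 held 77, 52 and 16, and that of chromosome 19 (chr19:24129969-29205319, between ZNF254 and UQCRFS1) held 71, 48 and 14. Those of chromosomes 10 and 4 held 37 and 31 etoposide-only peaks against 6 and 8 untreated-only ones. In each of the 5 the etoposide-only peaks outnumbered the untreated-only ones, whereas over the rest of the genome there were 0.611 etoposide-only peaks for each untreated-only one. Together the 5 held 304 etoposide-only and 55 untreated-only peaks, a ratio of 5.53. The 5 were chosen by their number of etoposide-only peaks, so these counts are a description.

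The 304 peaks made up 3.51% of the set on 1.30% of the length, or 7.71 per Mb against 2.80 elsewhere. They were taller, with a median of 13 fragments against 10, on a local background of 0.917 against 0.699 fragments. They held 24 of the 66 etoposide-only peaks in the strongest part of the list. Within 1 kb of an untreated peak lay 6.91% of them against 17.7% of the others. The median distance to an untreated peak was similar, 13.1 kb against 14.4 kb. On chromosome 19 the stretch held 71 of the 149 etoposide-only peaks of the chromosome, or 47.7%. Without the 5 stretches, 8356 peaks were left, of which 19.9% lay more than 100 kb from a gene and 52.9% inside one.

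**Figure D3:**
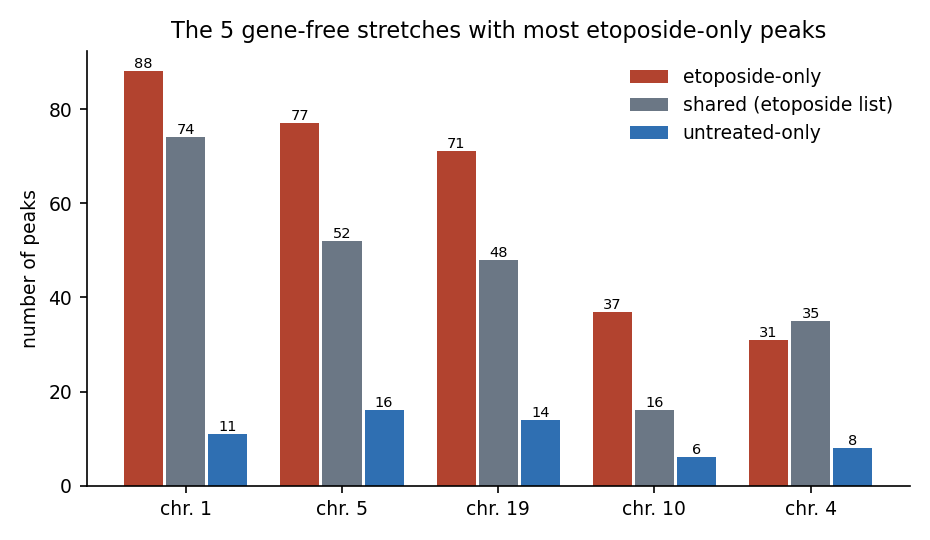
Number of etoposide-only, shared and untreated-only peaks in the 5 gene-free stretches with most etoposide-only peaks, by chromosome. Etoposide-only peaks number 31 to 88 and untreated-only peaks 6 to 16; on chromosome 4 shared peaks, 35, are the most numerous.

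The 10 most significant etoposide-only peaks were mostly there too, 9 of them in the 5 stretches. The first, chr19:27183499-27183767, had 49 fragments at 14.5-fold over background and -log10 q of 40.97, ranked 126 of the etoposide list, and lay 2022 kb from UQCRFS1. The next, chr1:125167722-125168032, had 47 fragments and -log10 q of 34.3, and an untreated peak lay 0.096 kb away. The exception was chr21:10270185-10270437, 251 kb from TPTE, with 28 fragments and no untreated peak within 422 kb. The tallest stack, chr1:125182929-125183139 with its 177 fragments, rose only 2.75-fold over its background. These places thus differ in how far the peak stood out from its surroundings.

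Outside the stretches, strong peaks lay both inside genes and far from them. One inside KIAA0319L on chromosome 1 had 23 fragments and -log10 q of 23.1, and an untreated peak lay 0.035 kb away. One inside MAGI1, which encodes a scaffold of cell junctions, had 24 fragments and -log10 q of 22.2, with the nearest untreated peak 29.5 kb away. One lay 60.8 kb outside LAMA2, a laminin chain of the basement membrane, with 22 fragments and 97.3 kb to the nearest untreated peak. One inside GPAT3, an enzyme of triglyceride synthesis, had 27 fragments and an untreated peak at 0.064 kb.

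Etoposide-only peaks were usually solitary. With runs joined at 10 kb, 7695 (88.9%) had no other etoposide-only peak beside them, 856 stood in pairs and 109 stood in 34 runs of 3 or more. Of the 34 runs, 12 were in the 5 stretches, among them the longest, 6 peaks of 19 to 25 fragments in 29.7 kb (chr5:49543127-49572824). Outside the stretches, a run of 4 peaks with 9 to 19 fragments lay inside NRG1, which encodes the growth factor neuregulin. A run of 3 peaks with 11 to 15 fragments lay inside COL5A2, a chain of type V collagen.

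Counted in windows of 1 Mb, the fullest, chr1:124000001-125000000, held 38 etoposide-only, 23 shared and 5 untreated-only peaks. The fullest window outside the stretches, chr7:116000001-117000000, held 17 etoposide-only, 20 shared and 12 untreated-only peaks. In it were 4 etoposide-only peaks inside TFEC, a transcription factor gene, and 2 each inside CAV1, the main protein of caveolae, MET, the hepatocyte growth factor receptor, and TES, a focal adhesion protein. TFEC held no shared peak, and the others held 1 or 2. Autosomes carried 2.96 etoposide-only peaks per Mb and X carried 0.968, beside 5.44 and 1.24 shared peaks and 4.69 and 1.77 untreated-only peaks.

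Many etoposide-only peaks lay just beside an untreated peak. Within 0.2 kb of one were 1102, or 12.7% (12.04% to 13.4%), 17.3% lay within 1 kb, 40.3% within 10 kb and 92.4% within 100 kb, with a median of 14.4 kb. The distances had a mode: 451 peaks had their edge 100 to 150 bp from an untreated peak, against 20 to 27 peaks per 50 bp from 300 to 500 bp. Untreated-only peaks had the same pattern against the etoposide list, 12.4% within 0.2 kb and a median of 16.1 kb. The rule forbids a shared base and does not fix the distance beyond that.

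For the 1102 adjoining pairs the 2 summits were a median of 358 bp apart (311 to 401 bp). The etoposide-only peak had a median of 12 fragments and its untreated neighbour 15, with no correction for the relative depth of 0.836. In 338 pairs (30.7%) the untreated neighbour also overlapped another etoposide peak, and in 764 (69.3%) it was itself untreated-only. Peaks that did overlap had their summits a median of 41 bp apart (17 to 95 bp), and 16.5% were more than 200 bp apart. Adjoining pairs can therefore be counted as 1 place with a moved summit or as 2 places, and which applies was not tested. Counting only peaks more than 1 kb from any untreated peak left 7164.

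**Figure D4:**
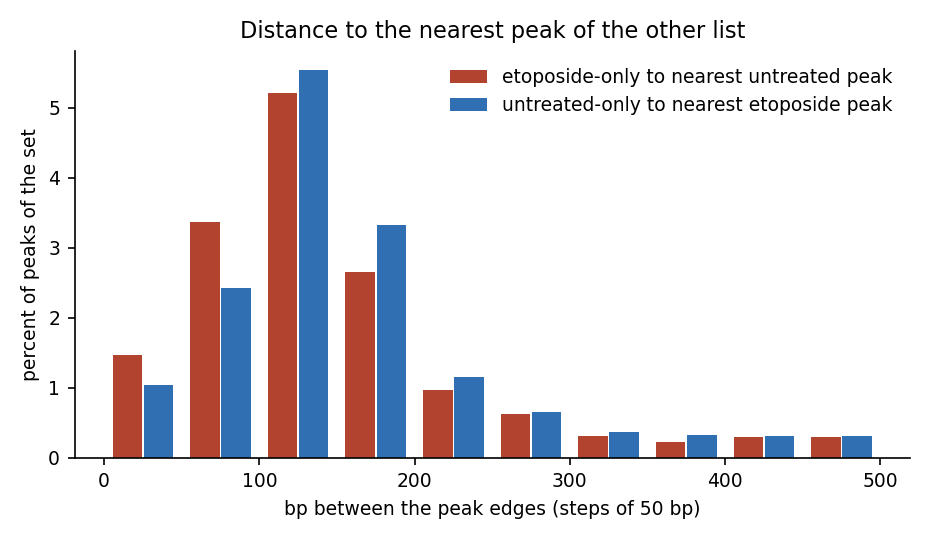
Percent of etoposide-only peaks by distance to the nearest untreated peak, and of untreated-only peaks by distance to the nearest etoposide peak, up to 500 bp in steps of 50 bp. Both sets are highest at 100 to 150 bp, with 451 of the 8660 etoposide-only peaks there.

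At 16 of these pairs a promoter window reached between the 2 summits, and at 9 of the 16 the window held an AP-1 match. The sequences of 4 are shown because the match lay between an etoposide-only summit on one side and an untreated summit on the other. Each is limited to bases before the transcript start, read and marked as above.
RTN4 (chr2:55051273-55051522, minus strand): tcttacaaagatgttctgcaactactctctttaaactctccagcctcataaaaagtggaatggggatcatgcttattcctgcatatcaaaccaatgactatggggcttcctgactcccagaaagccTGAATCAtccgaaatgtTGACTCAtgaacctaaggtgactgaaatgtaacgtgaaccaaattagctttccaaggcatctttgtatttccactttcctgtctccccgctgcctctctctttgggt
SLC1A3 (chr5:36606704-36606953, plus strand): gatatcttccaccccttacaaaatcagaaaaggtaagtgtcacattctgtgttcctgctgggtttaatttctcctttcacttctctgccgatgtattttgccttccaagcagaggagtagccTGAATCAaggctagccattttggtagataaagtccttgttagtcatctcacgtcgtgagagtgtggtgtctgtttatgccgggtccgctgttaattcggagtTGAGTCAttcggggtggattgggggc
LOC107986160 (chr3:183285806-183286055, plus strand): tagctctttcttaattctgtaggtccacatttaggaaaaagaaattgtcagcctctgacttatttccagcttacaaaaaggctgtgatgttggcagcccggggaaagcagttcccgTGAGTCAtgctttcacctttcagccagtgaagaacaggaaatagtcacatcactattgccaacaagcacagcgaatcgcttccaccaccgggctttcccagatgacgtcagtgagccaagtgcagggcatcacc
LOC105370135 (chr13:28574762-28575011, plus strand): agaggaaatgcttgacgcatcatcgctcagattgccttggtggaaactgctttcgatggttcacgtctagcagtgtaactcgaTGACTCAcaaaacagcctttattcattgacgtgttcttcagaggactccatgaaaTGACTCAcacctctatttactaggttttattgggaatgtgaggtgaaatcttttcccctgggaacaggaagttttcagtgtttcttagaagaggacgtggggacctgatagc

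At RTN4, which encodes a protein that shapes the endoplasmic reticulum, the etoposide-only summit had 25 fragments and the untreated summit, 392 bp away, had 46. The printed match nearest to the etoposide-only summit lay 158 bp from it. The match nearest to the untreated summit, at 111 bp, is a further one that runs past the transcript start and is not printed. At SLC1A3, a glutamate transporter, 13 and 15 fragments stood 405 bp apart, with 1 printed match 159 bp from the etoposide-only summit and the other 144 bp from the untreated one. At the non-coding genes LOC107986160 and LOC105370135 the heights were 11 against 40 and 8 against 12 fragments. None of these heights was corrected for depth. Over the 9, 13 of 14 matches lay between the summits, and so did 87.1% of the bases searched, so the windows show the arrangement without measuring a preference for it.

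Within the etoposide list, etoposide-only peaks also lay near shared ones: 5.77% within 1 kb, 19.8% within 10 kb and 61.4% within 50 kb of a shared peak, with a median of 33.6 kb. For untreated-only peaks and the shared peaks of their own list these were 9.98%, 25.2%, 65.1% and 28.7 kb. The lists differ in their number of peaks, which bears on such distances.

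Of 19970 protein-coding genes, 3586 had an etoposide-only summit inside or within 10 kb, or 18.0%. Length moved with this: the median gene with one was 90.1 kb long, against 24.2 kb for all genes. Per Mb of genes and their 10 kb flanks there were 3.37 etoposide-only, 6.25 shared and 5.79 untreated-only summits. The gene lists below are read against these densities and against the 18.0%, as counts without a test. The share of genes with an etoposide-only peak had an interval above 18.0% for collagens (33.7% to 75.4%), integrins and laminins (54.8% to 91.0%), TGF-beta and activin signalling (38.7% to 76.7%), growth factors and receptors (28.3% to 67.6%) and very long genes (47.3% to 83.6%). Those of the other 7 lists took it in. The median gene of these 5 lists was 88.4 to 1486 kb long, and the part of length in their shares was not tested.

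Genes of matrix and adhesion held many. Of 18 collagen genes 10 had an etoposide-only peak, at 9.48 per Mb beside 16.3 shared and 14.0 untreated-only. COL5A2 had 10, of 5 to 15 fragments, among 12 shared and 7 untreated-only peaks. COL15A1, a basement membrane collagen, had 4 of 11 to 12 fragments, and COL8A1 had 3. Of 18 integrin and laminin genes 14 had one, at 7.49 per Mb. LAMA2 had 4, ITGB5, an integrin beta chain that pairs with the alpha V chain, had 3 and ITGA2, a collagen receptor chain, had 2. All 3 peak sets were denser at these genes than over all genes, and the ratio of etoposide-only to untreated-only peaks, 0.676 and 0.606, was near the 0.582 of all genes.

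Of 25 genes of matrix glycoproteins and proteoglycans 7 had an etoposide-only peak, at 4.51 per Mb. VCAN, NID2 and FBN1, which encode versican, nidogen 2 and fibrillin 1, had 2 each, and FN1, the fibronectin gene, had 1 of 14 fragments. Of 28 actin and focal adhesion genes 7 had one, at 4.94 per Mb beside 15.9 shared and 18.5 untreated-only summits. LPP had 6 and PALLD 4, both being proteins of focal adhesions and stress fibres. The ratio to untreated-only peaks was 0.268 here, against 0.582 for all genes.

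Genes of growth signalling followed. Of 22 genes of TGF-beta and activin signalling 13 had an etoposide-only peak, at 5.82 per Mb. ACVR1, a type I receptor, had 3, and LTBP1, which tethers latent TGF-beta to the matrix, had 2, the stronger of 20 fragments. The receptor genes TGFBR3 and BMPR1B had 2 each, the stronger of 15 fragments and 11 fragments. Of 15 genes of the TEAD and YAP axis 5 had one, including 3 at WWTR1, the gene of the coactivator TAZ, the tallest with 21 fragments. Of 21 growth factor and receptor genes 10 had one, with 6 each at PDGFD and NRG1 and 4 at IGF1R, the tallest there with 24 fragments.

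Within 10 kb few were at genes of the senescence-associated secretory phenotype (SASP), the secreted factors of senescent cells. Of 38 such genes 3 had an etoposide-only peak, or 7.89% (2.72% to 20.8%), an interval that takes in the 18.0% of all genes. Those 3 were the chemokine genes CCL5 and CCL7 and SERPINE2, a protease inhibitor gene, with 1 peak of 11, 7 and 10 fragments. The SASP genes are short, at a median of 9.45 kb. Per Mb they had 2.17 etoposide-only summits beside 15.9 shared and 13.0 untreated-only ones, a ratio to untreated-only peaks of 0.167. That ratio rests on 3 peaks. The count of SASP genes changed with the window: 0 had a summit inside the gene, 1 had one within 10 kb with summits kept over 3 kb from boundaries, and 12 of 38 had one within 50 kb, against 32.3% of all genes.

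Of 19 AP-1 family genes 3 had an etoposide-only peak, at JDP2, FOSL2 and ATF3, with 1 peak each, of 16, 10 and 8 fragments. Of 24 p53 target genes 5 had one: DDB2, a damage recognition factor, had 2, the stronger of 15 fragments, and BBC3, which encodes the pro-death protein PUMA, had 1 of 12 fragments. The others were ZMAT3, SESN1 and AEN. Of 21 topoisomerase and break repair genes 7 had one. They included the end-joining genes XRCC4 and XRCC5, the break sensors NBN and MRE11, and BRCA1. That at NBN had 19 fragments. For these 3 lists in turn the shares were 15.8%, 20.8% and 33.3%, each with an interval that takes in the 18.0% of all genes. Etoposide-only summits stood at 2.43, 5.19 and 3.53 per Mb. Shared summits stood at 5.66, 7.78 and 5.29 per Mb and untreated-only ones at 6.47, 9.51 and 7.50.

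Very long genes differed in another way. Of 22 genes chosen for length, with a median of 1486 kb, 15 had an etoposide-only peak, yet at 2.11 per Mb they were sparser than all genes. Shared peaks were at 2.87 and untreated-only peaks at 2.25 per Mb, so the ratio to untreated-only peaks was 0.938.

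**Figure D5:**
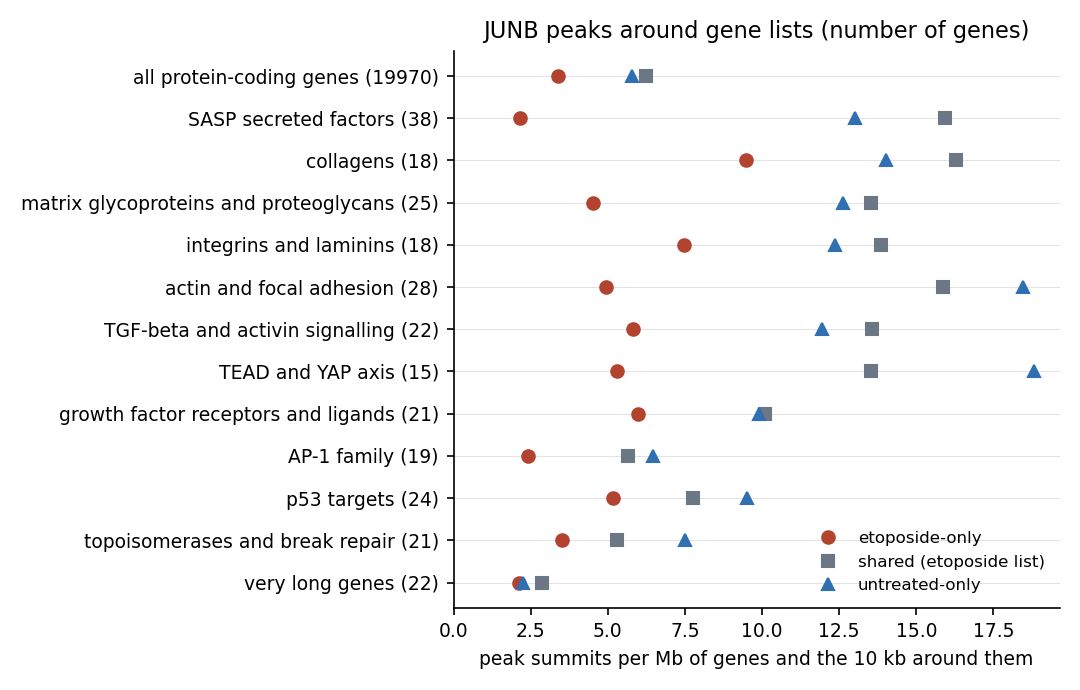
Peak summits per Mb of genes and the 10 kb around them, for etoposide-only, shared and untreated-only peaks, over all protein-coding genes and 12 gene lists. Etoposide-only summits are densest at collagens, 9.48 per Mb, and at SASP genes stand at 2.17 beside 15.9 shared and 13.0 untreated-only.

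The genes that held most etoposide-only summits were long: MAGI2, a scaffold of synapses and junctions, had 12, GPC6, a cell-surface proteoglycan, had 11, and CAST and COL5A2 had 10 each. PLCB1, DST and EXOC4 had 9 and ROBO1, RAD51B and NRXN3 had 8. EXOC4, a subunit of the exocyst, had 4 shared and 4 untreated-only peaks within 10 kb beside its 9. NRXN3 also had 4 shared peaks, with 8 untreated-only ones, and ROBO1 had 8 and 5. Per 100 kb, among genes of 50 kb or more with at least 4, EPAS1, which encodes the hypoxia factor HIF-2 alpha, came first with 4.48. Its 4 peaks had 7, 24, 12 and 7 fragments, beside 1 shared and 0 untreated-only peaks. USO1, a tether of Golgi vesicles, followed with 4.46, TAX1BP1, an autophagy receptor, with 4.43 and RFX2 with 4.26. PTPRC, the leukocyte surface phosphatase CD45, was among the 10 with 4 peaks of 7, 17, 8 and 9 fragments.

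Of the 3586 genes with an etoposide-only peak, 736 (20.5%) had no untreated peak within 10 kb, and 10 of these had 3 or more etoposide-only peaks. The share of all 19970 genes without an untreated peak is not given here, so the 20.5% is a count without a comparison. CADM1, a cell adhesion molecule, had 7, of 6 to 17 fragments, over its 335 kb, and the nearest untreated peak was 125 to 413 kb from them. ROCK2, a kinase that acts on the actin cytoskeleton, had 5, of 9 to 15 fragments, the nearest untreated peak being 31.6 to 106 kb away. PARG, the enzyme that removes poly(ADP-ribose), had 4 of 9 to 14 fragments, 1 of them outside the gene. UBN2, a histone chaperone subunit, had 3, of 22, 8 and 9 fragments. IL6ST, which encodes gp130, the receptor subunit shared by interleukin 6 family cytokines, had 3 of 10, 13 and 6 fragments, 1 of them inside the gene. PINX1, NIPAL2, LUC7L and IPMK were among those with 3 each. These genes were ranked by the absence of untreated peaks, which the rule itself favours.

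The cell type in the labels was checked on marker genes. Shared peaks lay within 10 kb of 9 of 12 fibroblast markers, 2 of 10 epithelial, 4 of 8 endothelial, 1 of 8 haematopoietic and 1 of 8 skeletal muscle markers, against 5052 of all 19970 protein-coding genes, or 25.3%. Etoposide-only peaks lay near 2 of 12 fibroblast markers (FAP and COL3A1) and 2 of 8 endothelial markers (ERG and TEK). They lay near 1 of 8 haematopoietic markers (PTPRC) and none of the epithelial or skeletal muscle markers. Of all protein-coding genes 18.0% had one within 10 kb. The median gene was 40.2 kb long for fibroblast, 96.2 kb for endothelial and 17.6 kb for haematopoietic markers. It was 6.21 kb for epithelial and 5.62 kb for skeletal muscle markers, and the part of length was not tested. A peak near a gene does not measure its expression.

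Values on either side of the thresholds were close together. Just inside the distance limit were summits 1001, 1004 and 1007 bp from a boundary, at NBPF15, NDC1 and ARPC4-TTLL3, and just outside were summits at 1000, 997 and 994 bp, at CTHRC1, PYDC5 and TWF2. At the overlap limit, 28 etoposide-only peaks lay 0 to 9 bp from an untreated peak, 3 of them touching it, and 29 shared peaks overlapped one by 1 to 10 bp. The number of peaks depended most on that limit: when sharing needed 50% of both peaks, 13995 were etoposide-only.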

How the data were processed

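JUNB CUT&RUN peaks came from 1 untreated and 1 etoposide-treated library of IMR-90 cells, grouped by the treatment label. The deposited lists are in narrowPeak layout: the fold at the summit is the ratio of the signal to the caller's local background, the significance columns are the authors' -log10 p and -log10 q, the deposited score is 10 times -log10 q in whole numbers, and the last deposited column gives the offset of the summit in bp. The submitters' processing notes name Bowtie2, MACS2, hg38 and mm10, with no role, settings or version. These values were used to describe peaks and to rank them within a list. Heights set side by side across the lists were not corrected for depth.

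The fragments stacked at each summit were worked out from the fold, (k + 1)/(b + 1), and the Poisson p, and 100% of peaks gave a whole number within 0.001 of the deposited -log10 p. The etoposide list spans 5 to 332 fragments, with a median of 13, and the untreated list a median of 15. Relative depth, 0.836, is the ratio of the lowest local backgrounds and rests on reading them as genome-wide coverage. It was corrected by the narrowest peak of each list, 189 bp for etoposide and 202 bp for untreated, taken as the fragment length. The processing notes name no molecular identifiers. With 1 library per condition, Wilson intervals at 95% cover counting error only.

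Peaks sharing at least 1 bp were called shared, and 19970 protein-coding genes of RefSeq GRCh38.p14 gave boundaries and distances. Promoter sequences, also from RefSeq, were searched for 6 motifs on both strands. No genome sequence was used, so motifs around all summits were not searched. The recovery of fragment counts, the overlap call, the gap of touching peaks and the motif search were tested on simulated data. Python 3.11.15, numpy 2.4.6, pandas 2.3.3, scipy 1.17.1 and matplotlib 3.10.9 were used.

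The peak set, the 12 gene lists and the 5 marker lists were chosen with earlier results of these data known. Genes and peaks were named by rule: the 10 most significant peaks, the 10 genes with most summits inside or most per 100 kb, the 10 with most and no untreated peak within 10 kb, up to 5 per list, the fullest window, the longest run, and the 3 peaks on either side of each threshold. Other peaks, windows and runs named were chosen after their values were seen. Alternatives raised the significance threshold, the distances or the overlap, or left out the 5 gene-free stretches. Peaks on contigs, on Y and on mitochondrial DNA were not compared. Some named items of the rule are not reported here.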

Additional observations from a re-analysis of the deposited data

Results flagged for a closer look

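Outside the chromosomes analysed, 26 of 35 etoposide peaks on Y shared no base with an untreated peak, against 2 of 10 untreated peaks that shared none with an etoposide peak. These were set apart because Y was in no comparison and the number exceeded that of the untreated library. On contigs 345 of 814 etoposide peaks and 452 of 927 untreated peaks were in 1 list only, and on the mitochondrial genome none of 2 and 4. The cause was not tested, and these calls are not read here as JUNB sites on Y.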

How the results depend on the processing

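The 8660 peaks rest on 1 library per condition and on the calls of the untreated list, so depth and the caller's threshold limit what can be said of a place without a peak. No paired analysis was possible because each condition had 1 library. Sharing that needed 50% of both peaks gave 13995 peaks, or 54.4% of the etoposide list, against 33.6%. With -log10 q of at least 5 in both lists the share was 32.3%, the median -log10 q 7.33, the median height 11 fragments, and 11.8% and 36.8% lay within 0.2 kb and 10 kb of an untreated peak, with 3.97% in the 5 gene-free stretches. With no untreated peak within 1 kb these were 27.8% of the list, 0% and 27.8% within those distances and 3.95% in the stretches, the 0% being set by the choice. With summits over 3 kb from boundaries the share was 32.01% and 23.9% lay over 100 kb from genes. Without the 5 stretches, chosen after seeing the data, the share was 32.5%, with 52.9% inside genes and 19.9% over 100 kb away. Counting genes of every kind put 65% inside one. Windows of 50 kb around genes raised the list genes with a peak from 99 to 156. AP-1 matches within 50 bp of the summit were at 6.98%, and within 100 bp, chosen after seeing the data, at 11.6%. The other 39 values of these summaries lay within 1.5 times, or within the interval, of the value reported. Single lists moved more: at 50 kb the genes with a peak became 12 SASP, 16 collagen, 16 matrix, 12 actin, 8 TEAD and YAP, 10 AP-1 and 14 p53 genes, beside 32.3% of all genes. Within gene bodies they were 0 SASP and 1 AP-1 gene, beside 14.1% of all genes. Over 3 kb from boundaries they were 1 SASP gene and 3 TEAD and YAP genes (15.8% of all), and with no untreated peak within 1 kb 9 integrin and laminin genes (15.8%). The stricter -log10 q gave 15.4% of all genes. The planned motif search around all summits was not run.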
